A study of Rattus norvegicus with 20 samples.

Results

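The prefrontal cortex of Fischer344/Jcl male rats was compared between a low-iron diet and a standard diet, with 5 low-iron libraries set against 5 standard-diet libraries. These 10 libraries, chosen by their tissue and diet labels, are 10 of the 20 in the series, and the other 10 come from the nucleus accumbens. Per the labels, one group ate the standard AIN-93G diet and the other a low-iron diet while they were 21 to 39 days old, and tissue of both was taken at 13 weeks of age. The tissue was taken long after the diet ended, and no label gives an iron measurement of the animals. Reelin in the nucleus accumbens is the subject of the series title, and the cortex is the second region. Poly(A) RNA was read as 75 bp single reads. No label ties a library to an animal, so the p-values speak only of the spread among these libraries, which may be technical.

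Iron enters the brain across the endothelial cells of the blood-brain barrier through the transferrin receptor (Tfrc), is stored in ferritin (Fth1, Ftl1) and leaves cells through ferroportin (Slc40a1). Neurons and glia use it in heme, in iron-sulfur clusters of the respiratory chain, in dioxygenases that act on chromatin and RNA, and in tyrosine hydroxylase (Th), which makes the precursor of dopamine. The transferrin receptor and ferritin are controlled mainly through RNA stability and translation by the iron regulatory proteins, so their RNA levels show only a part of that control. The prefrontal cortex holds excitatory and GABA neurons, astrocytes, oligodendrocytes, microglia and vessels, and a dissection can carry meninges or neighbouring tissue with it. In bulk RNA, fewer cells of a type and less RNA per cell cannot be told apart.

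Cortex libraries held 5.81 to 13.0 M reads assigned to RefSeq accessions, 10.3 ± 2.004 M with the standard diet and 9.36 ± 2.59 M with the low-iron diet (SD, n = 5; two-sided exact permutation p = 0.516, adjusted p = 0.690 over the 4 library measures compared). Levels are in CPM, read counts scaled to each library's reads in the tested accessions times its TMM normalization factor (0.969 to 1.06). Where no read was seen, as many as 3 could have been missed. Scaled to assigned reads this is 0.231 to 0.516 CPM by library, and it covers counting error only. The tissue label was checked on markers of cortical excitatory neurons, of which 17 of 17 in the files were detected, at a summed level of 4116 to 6766 CPM. Accessions that share a symbol with another were at 0 in all 10 libraries for 53.9% of 1582, against 14.2% of the other named accessions, so genes with several accessions are undercounted, and a 0 for Aqp4, Ndrg2, Rps9 or Ptprc in these files is no measure of expression.

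Standard-diet replicate 4 stood apart from the other 9 libraries. Its median distance from the others, gene by gene, was 0.21 on the log2 scale, against 0.07 to 0.12 for the rest, and 661 genes lay at least 2-fold from the median of the others, 634 of them above it, against 4 to 89 genes in any other library. The genes furthest above the other standard-diet libraries included Tbx21 (10.5 CPM) and Cdhr1 (442 CPM, against 19.6 to 25.8 CPM), both known from mitral cells of the olfactory bulb, the secreted matrix protein gene Spp1 (62.0 CPM) and the neuropeptide gene Cartpt (22.3 CPM). Itga10, Ms4a15, Klhl14 and Shisa8 completed the 8 furthest above. Summed olfactory bulb markers stood at 606 CPM there, against 43.1 to 51.7 CPM in the other standard-diet libraries and 37.7 to 57.6 CPM in the low-iron libraries. Summed meninges and fibroblast markers stood at 8984 CPM, against 779 to 1638 CPM and 354 to 2231 CPM in the same order. Excitatory neuron markers went the other way, at 4116 CPM against 5928 to 6193 CPM and 5729 to 6766 CPM. Low-iron replicate 5 held the highest meninges sum of its group (2231 CPM, the others 354 to 1028 CPM). Counts, lists and the genes described in most detail are therefore given with all 10 libraries and again without standard-diet replicate 4, and the part of these markers in the results was not tested.

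**Figure D1:**
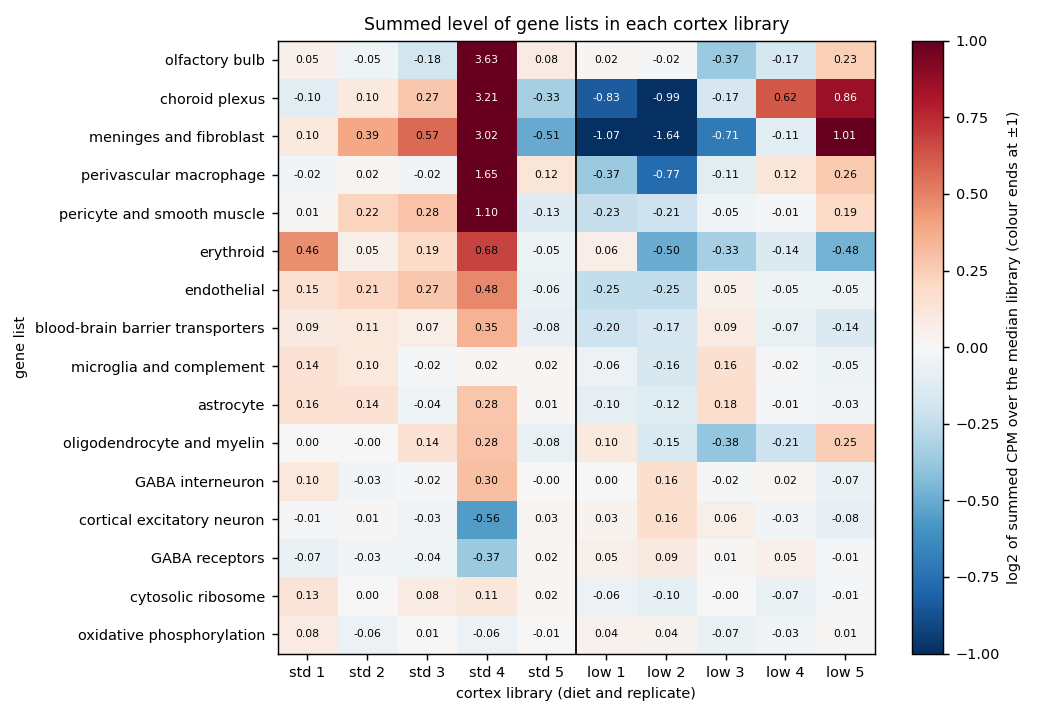
Summed level of 16 gene lists (vertical axis) in each of the 10 cortex libraries (horizontal axis: std, standard diet, low, low-iron diet, with the replicate number); colour and printed number give the log2 of the summed CPM over the median library, with colours ending at ±1. Standard-diet replicate 4 is highest for olfactory bulb (3.63), choroid plexus (3.21) and meninges (3.02) and lowest for excitatory neuron markers (-0.56), while the cytosolic ribosome row is lower in all 5 low-iron libraries than in any standard-diet library.

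No gene passed an adjusted p of 0.05 in the cortex with edgeR's quasi-likelihood test and Benjamini-Hochberg adjustment, with 0 of 11662 accessions called and a lowest adjusted p of 0.683. DESeq2 called 0 as well, and the authors' deposited table holds 0 accessions with an adjusted p under 0.05 (its lowest is 0.221, for Abcg2 and Slco2b1). An unadjusted p under 0.05 was found with edgeR for 699 accessions (5.99%), of which 262 (2.25%) were higher and 437 (3.75%) lower with low iron, and with DESeq2 for 751. CPM values of the diets did not overlap for 128 accessions (1.10%), 58 higher (0.497%) and 70 lower (0.600%). Log2 fold changes, given throughout as low iron over standard, were below 0 for 50.2% of accessions and above 0 for 49.8%, with a median of -0.00. Without standard-diet replicate 4 they were below 0 for 48.9% and above 0 for 51.1%, with a median of 0.00.

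In the 9 libraries without standard-diet replicate 4, again 0 of 11746 accessions passed with edgeR (lowest adjusted p = 0.962) or DESeq2, and 567 (4.83%) had an unadjusted p under 0.05 with edgeR, 240 higher (2.04%) and 327 lower (2.78%), against 419 with DESeq2. Of the 699 accessions at that level with all 10 libraries, 412 were also among the 567 (58.9% and 72.7% of the 2 sets), all 412 in the same direction. Non-overlap was met by 183 accessions (1.56%), 83 higher (0.707%) and 100 lower (0.851%), a looser condition with 4 libraries than with 5. The count at an unadjusted p under 0.05 also turned on other libraries. It was 437 without low-iron replicate 1 and 1156 without standard-diet replicate 5, and the lower ones alone numbered 279 without low-iron replicate 2.

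The libraries set a limit on how large a difference could have been missed. With all 10 libraries the 95% interval of the fold change lay within 2-fold in either direction for 10925 of 11662 accessions (93.7%) and within 1.5-fold for 9575 (82.1%). In the 9 libraries without standard-diet replicate 4 these were 11392 (97.0%) and 10145 (86.4%) of 11746. A fitted change of 2-fold or more was found for 140 accessions with all libraries and for 3 without that library. The common biological coefficient of variation, edgeR's measure of spread between libraries, was 0.129 with all libraries, 0.0712 without standard-diet replicate 4, and 0.130 to 0.139 with any other library left out.

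**Figure D2:**
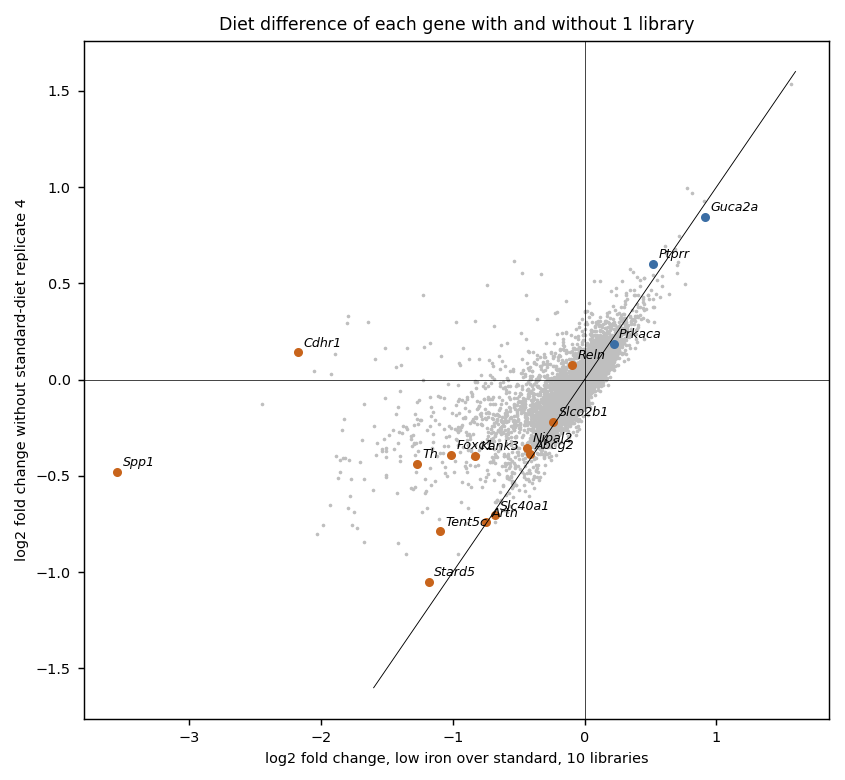
Log2 fold change of each accession, low iron over standard, with all 10 libraries (horizontal axis) and without standard-diet replicate 4 (vertical axis); the diagonal marks equal values, and coloured points are genes named in the text, blue where the 10-library value is above 0 and orange where it is below. Spp1, Cdhr1 and Th lie far left of the diagonal (-3.54, -2.17 and -1.27 with all libraries; -0.48, 0.14 and -0.44 without that one), while Abcg2, Slco2b1 and Slc40a1 lie close to it.

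The 4 genes with the lowest p among those lower with low iron were Abcg2, Slco2b1, Pltp and Slc40a1, of which Abcg2 and Slco2b1 are transporters of the blood-brain barrier. Abcg2 encodes an efflux pump of the luminal membrane of brain capillaries that carries drugs, urate and porphyrins. In the standard-diet libraries 1 to 5 it stood at 24.7, 28.1, 24.7, 29.1 and 27.9 CPM, and in the low-iron libraries 1 to 5 at 21.0, 17.4, 21.6, 19.3 and 21.7 CPM. The low-iron group lay wholly below the standard-diet group, and standard-diet replicate 4 was only the highest of a narrow range. The log2 fold change was -0.42 (SE 0.08, 95% interval -0.60 to -0.24) with all libraries and -0.39 (SE 0.09) without that library, with adjusted p = 0.683 and 0.962 with edgeR.

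Slco2b1, which encodes an organic anion transporter of brain endothelium, stood at 70.3, 67.9, 67.4, 72.7 and 65.7 CPM with the standard diet and at 58.9, 55.0, 60.2, 57.6 and 59.9 CPM with the low-iron diet. These groups too did not overlap, and the spread within each was small. Its log2 fold change was -0.24 (SE 0.05) with all libraries and -0.22 (SE 0.05) without standard-diet replicate 4, not passing in either.

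Slc40a1 encodes ferroportin, the only known exporter of iron from cells. It was read shallowly, with 16 to 49 reads a library, at 3.51, 3.77, 3.78, 3.60 and 4.38 CPM with the standard diet and 2.20, 2.31, 3.13, 2.01 and 2.35 CPM with the low-iron diet. The diets were again apart, with low-iron replicate 3 closest to the standard-diet values. Its log2 fold change was -0.68 (SE 0.16, 95% interval -1.03 to -0.33), and -0.70 (SE 0.18) without standard-diet replicate 4. It did not pass with edgeR in either fit (adjusted p = 0.683 and 0.962).

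The stretches before the start sites of these 3 genes are shown because the genes were lower together, and they can be set beside the motifs that known metal and oxygen responses use. Each line gives the 250 bases upstream of the RefSeq start on assembly GRCr8, read 5′ to 3′ on the gene's strand: Abcg2 at chr4:89075224-89075473 (plus strand), Slco2b1 at chr1:163408066-163408315 (minus strand) and Slc40a1 at chr9:55543461-55543710 (minus strand). Capitals mark matches, on either strand and with overlaps allowed, to any of 4 motifs: the GC box GGGCGG, the hypoxia response core ACGTG, the antioxidant response core TGACNNNGC and the metal response core TGCGCNC.
Abcg2: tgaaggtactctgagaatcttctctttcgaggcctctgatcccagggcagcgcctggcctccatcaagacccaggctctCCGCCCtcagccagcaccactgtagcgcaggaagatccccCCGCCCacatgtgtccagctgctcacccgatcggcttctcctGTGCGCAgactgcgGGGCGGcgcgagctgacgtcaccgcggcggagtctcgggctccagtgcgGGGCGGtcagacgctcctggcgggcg
Slco2b1: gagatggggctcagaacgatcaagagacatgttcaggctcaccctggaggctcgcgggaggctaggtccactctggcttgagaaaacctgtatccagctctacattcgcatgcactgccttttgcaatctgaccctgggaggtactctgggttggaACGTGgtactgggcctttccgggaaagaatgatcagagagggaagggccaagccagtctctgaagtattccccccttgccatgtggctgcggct
Slc40a1: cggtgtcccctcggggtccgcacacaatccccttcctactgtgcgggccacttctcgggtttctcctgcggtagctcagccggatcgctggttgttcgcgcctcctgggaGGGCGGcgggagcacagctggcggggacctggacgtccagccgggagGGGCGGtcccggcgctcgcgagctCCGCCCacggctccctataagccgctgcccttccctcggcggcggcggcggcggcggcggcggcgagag
Abcg2 held 4 GC boxes and 1 metal response core, Slc40a1 held 3 GC boxes, and Slco2b1 held 1 hypoxia response core. Such matches are common, and are a description of the letters only. Among all 33469 promoters of the same length in the RefSeq table, 30.5% held a GC box, 16.6% the hypoxia core, 10.1% the antioxidant core and 11.8% the metal core. Of the 12 lower genes with the lowest p, 8 had a promoter in that table, 6 of them with a GC box and 2 with a metal core. All 12 higher genes had one, 8 with a GC box and 5 with a metal core.

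Of the other 9 lower genes with the lowest p, none passed. Nipal2, a gene of a magnesium transporter family, stood at 7.96 to 10.2 CPM with low iron and 11.6 to 15.5 CPM with the standard diet (log2 fold change -0.44, SE 0.11; -0.35 without standard-diet replicate 4, its highest library). Pltp, the phospholipid transfer protein gene, stood at -0.28 (SE 0.07) and -0.26 without that library, with low-iron replicate 3 (159 CPM) inside the standard-diet range. The calcium-binding S100a1 stood at -0.32 (SE 0.08; -0.33 in the 9 libraries), the phosphatase 1 regulator Ppp1r18 at -0.30 (SE 0.08; -0.29) and the lysosomal protease gene Ctsz at -0.30 (SE 0.08; -0.25), each with no overlap between diets. Artn, the gene of a GDNF family ligand, stood at -0.74 (SE 0.20; -0.74 in the 9 libraries) on 7 to 22 reads a library, Stard5, a sterol transfer gene, at -1.18 (SE 0.29; -1.05) on 4 to 33 reads, and Tent5c, a poly(A) polymerase gene, at -1.10 (SE 0.30; -0.79 without standard-diet replicate 4). Tek, an endothelial receptor, is described with the vessel genes.

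Among higher genes the lowest p belonged to Prkaca, which encodes a catalytic subunit of protein kinase A. It stood at 221, 209, 209, 189 and 220 CPM with the standard diet and at 259, 256, 234, 238 and 233 CPM with the low-iron diet. Here the low-iron group lay wholly above the standard-diet group. Prkaca had a log2 fold change of 0.22 (SE 0.06), and 0.19 (SE 0.05) without standard-diet replicate 4, which was the lowest library; neither passed with edgeR (adjusted p = 0.683 and 0.962). Epha7, an ephrin receptor gene of axon guidance and dendrite shape, stood at 48.3, 51.6, 44.0, 38.8 and 50.1 CPM with the standard diet. In the low-iron libraries it stood at 60.8, 61.3, 56.2, 53.3 and 56.5 CPM, again without overlap. Its log2 fold change was 0.31 (SE 0.08) with all libraries and 0.25 (SE 0.06) without that library.

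**Figure D3:**
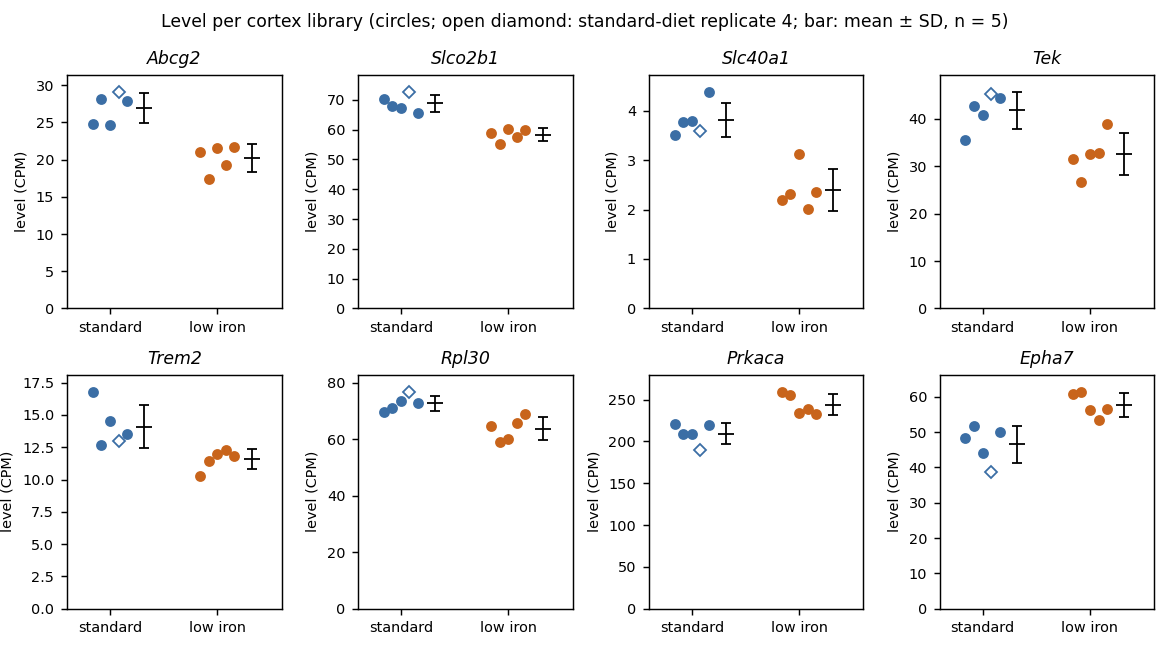
Level in CPM (vertical axes, from 0) of 8 genes in each cortex library, by diet (horizontal axes); circles are libraries, the open diamond is standard-diet replicate 4, and bars give the mean ± SD (n = 5). The diets do not overlap for Abcg2, Slco2b1, Slc40a1, Trem2, Rpl30, Prkaca and Epha7, and overlap for Tek, where low-iron replicate 5 (39.0 CPM) lies above standard-diet replicate 1 (35.6 CPM).

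The other 10 higher genes had small fold changes with narrow errors, apart from 1. Pik3r1, a regulatory subunit of PI3-kinase, stood at 77.8 to 88.0 CPM with low iron and 65.9 to 77.4 CPM with the standard diet (0.22, SE 0.06; 0.21 in the 9 libraries). Atp2a2, the calcium pump of the endoplasmic reticulum, stood at 0.20 (SE 0.06) and at 0.15 without standard-diet replicate 4. It has 3 accessions, of which the most abundant was used, a non-coding transcript, so the value is not that of the coding RNA alone. The exocyst gene Exoc6, the RNA-binding gene Rbm18 and Fam136a also showed no overlap, at 0.21, 0.16 and 0.21 (0.19, 0.15 and 0.21 in the 9 libraries). The sodium-calcium exchanger gene Slc24a3 (0.23), the lipid kinase gene Pi4k2a (0.25), C14h1orf146 (0.23) and Mmachc, a gene of cobalamin metabolism (0.30), overlapped, and stood at 0.22, 0.22, 0.21 and 0.30 in the 9 libraries. Guca2a, the guanylin gene, stood at 0.91 (SE 0.26; 0.85 in the 9 libraries) on 5 to 13 reads a library.

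Leaving out standard-diet replicate 4 brought 12 further genes to the lowest p, of which none passed. Higher were Gk, the glycerol kinase gene (0.26, SE 0.07; 0.19 with all libraries), Ptprr (0.60, SE 0.18), Bmt2, a regulator of methionine sensing (0.30), the ubiquitin ligase gene Rnf11, the synaptic adhesion gene Lrrc4 and Tspyl4. Lower were the small-subunit ribosomal protein gene Rps21 (-0.20, SE 0.05), Kank3, a vascular cytoskeletal gene (-0.39, SE 0.10), Ctdsp1 (-0.22), the galectin gene Lgals9 (-0.43), Tbl3 (-0.26) and the signalling adaptor gene Dapp1 (-0.59). Kank3 shows what that library did to a value. It stood at 58.1 CPM there and at 16.5 to 21.9 CPM in the other standard-diet libraries, so that its log2 fold change with all libraries was -0.83 (SE 0.33).

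Endothelial cells line the vessels and form the blood-brain barrier. Of 20 endothelial genes tested, 19 were below 0 with a median log2 fold change of -0.32, and 15 (75.0%) were lower at an unadjusted p under 0.05, where 3.75% of all accessions were. In the 9 libraries 19 were again below 0, with a median of -0.28, and 10 (50%) were lower at that level, where 2.78% of all accessions were. Sox17, an endothelial transcription factor gene, was the 1 member with no overlap between diets, where 0.600% of all accessions were lower without overlap. None passed an adjusted p of 0.05. Genes of 1 cell type are not independent of each other, and the lists were chosen with earlier results of these data known. Such counts, here and for the other lists, are therefore descriptions and no test.

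Tek, the angiopoietin receptor gene, stood at 35.6, 42.8, 40.9, 45.3 and 44.5 CPM with the standard diet and at 31.6, 26.8, 32.7, 32.8 and 39.0 CPM with the low-iron diet. Low-iron replicate 5 lay within the standard-diet range. Tek had a log2 fold change of -0.36 (SE 0.10), and -0.32 (SE 0.10) without standard-diet replicate 4. Eng, a TGF-beta co-receptor gene of vessels, stood at -0.30 (SE 0.09) and -0.27 (SE 0.08), and Cd34 was the 1 member above 0. The summed level of the 20 genes was 800, 834, 870, 1008 and 690 CPM with the standard diet and 608, 607, 746, 697 and 695 CPM with the low-iron diet. Standard-diet replicate 4 was highest and standard-diet replicate 5 lay inside the low-iron range. The count of 15 was 9 without low-iron replicate 2, a library low in that sum. In that fit 279 of all accessions were lower at an unadjusted p under 0.05, against 437 with all 10 libraries.

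Mural and surrounding cells did not show as many low p. Pericyte and smooth muscle genes were below 0 for 11 of 12, with a median of -0.30. At an unadjusted p under 0.05, 1 was lower, where 3.75% of all accessions were. This median was -0.16 without standard-diet replicate 4, with 2 lower at that level, where 2.78% of all accessions were. Anpep, a pericyte surface peptidase gene, went from -0.77 (SE 0.34) to -0.34 (SE 0.20), and Pdgfrb, the PDGF receptor gene of pericytes, from -0.35 (SE 0.16) to -0.20 (SE 0.13). All 14 meninges and fibroblast genes were below 0 with a median of -1.50, and 0 had an unadjusted p under 0.05. Without that library 13 were below 0 with a median of -0.32, again with 0. Foxc1, a transcription factor gene of meningeal fibroblasts, went from -1.01 (SE 0.47) to -0.39 (SE 0.24), and Slc47a1, a transporter gene of the same cells, from -1.68 (SE 0.76) to -0.84 (SE 0.56). In the 9 libraries Foxc1 was highest in low-iron replicate 5 (23.4 CPM), and the other 4 low-iron libraries (9.60 to 14.4 CPM) lay below the 4 standard-diet libraries (17.7 to 21.1 CPM). The 3 testable choroid plexus genes had 0 at that level, and the 4 testable in the 9 libraries 0 as well.

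Transporters of the blood-brain barrier were below 0 for 16 of 19 genes, with a median of -0.16, and 6 (31.6%) were lower at an unadjusted p under 0.05, where 3.75% of all accessions were. Leaving out standard-diet replicate 4 gave 17, -0.14 and 5, where 2.78% of all accessions were. Abcg2 and Slco2b1, already named above for their low p, were the 2 without overlap, where 0.600% of all accessions were. The count of 6 was 3 when low-iron replicate 1, low-iron replicate 4 or standard-diet replicate 3 was left out. Of all accessions 267, 318 and 434 were lower at that level in these fits, against 437 with all 10 libraries. Of 3 erythroid genes tested, Hbb and Alas2 were below 0 and Ahsp, the gene of an alpha-globin chaperone, stood at 0.45 (SE 0.39), or 0.21 without standard-diet replicate 4. Hbb, a beta-globin gene, stood at 186, 139, 153, 215 and 129 CPM with the standard diet and 141, 93.3, 105, 122 and 95.5 CPM with the low-iron diet, a log2 fold change of -0.56 (SE 0.16) with all libraries and -0.45 (SE 0.15) without standard-diet replicate 4. Low-iron replicate 1 lay inside the standard-diet range. Alas2, the red cell enzyme of the first step of heme synthesis, stood at -0.58 (SE 0.20) and -0.41 (SE 0.16). Neither passed with edgeR (adjusted p = 0.683 with all libraries), and the part of residual blood in the vessel genes was not tested.

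**Figure D4:**
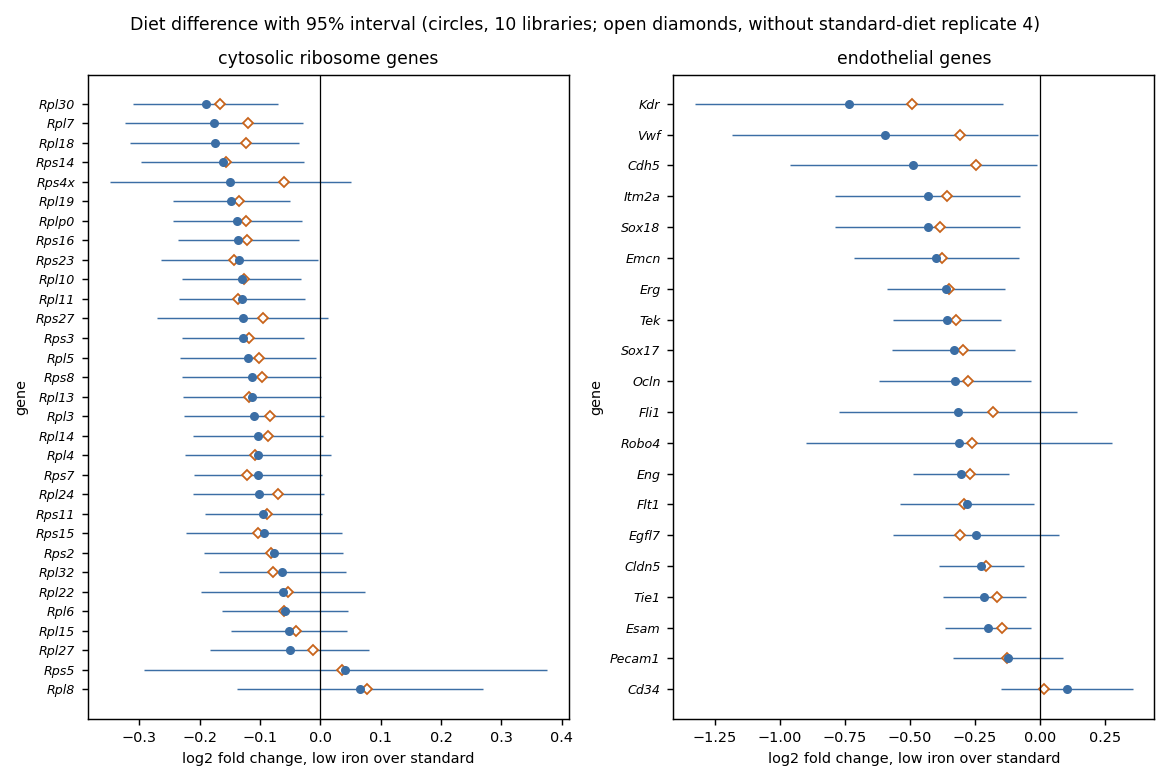
Log2 fold change of each tested member of the cytosolic ribosome list (left) and the endothelial list (right), low iron over standard; filled circles with 95% intervals are from all 10 libraries and open diamonds from the 9 without standard-diet replicate 4. In all 10 libraries 29 of 31 ribosomal and 19 of 20 endothelial genes lie below 0, most endothelial intervals are wider, and Kdr, Vwf and Cdh5 move most when the library is left out.

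Ribosomal protein genes, which encode the structural proteins of cytosolic ribosomes, stood slightly lower with low iron in most members. Of 31 tested, 29 were below 0 with a median log2 fold change of -0.11. At an unadjusted p under 0.05, 12 (38.7%) were lower, where 3.75% of all accessions were. Rpl30, Rpl19, Rps16, Rpl10 and Rpl11 showed no overlap between diets, 5 of 31 where 0.600% of all accessions did. Without standard-diet replicate 4 again 29 were below 0, with a median of -0.10. Then 14 (45.2%) were lower at that level and 5 without overlap, where 2.78% and 0.851% of all accessions were. The range of the members was narrow, from -0.19 to 0.07 with all libraries, and none passed.

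Rpl30 stood at 69.5, 71.0, 73.6, 76.6 and 72.6 CPM with the standard diet and 64.5, 59.1, 60.0, 65.6 and 68.8 CPM with the low-iron diet. The groups were close but did not overlap, low-iron replicate 5 being next to standard-diet replicate 1. Rpl30 had a log2 fold change of -0.19 (SE 0.06) and, without standard-diet replicate 4, -0.17 (SE 0.06). The large-subunit gene Rpl19 stood at -0.15 (SE 0.05) and -0.13 (SE 0.04). The summed level of the list was 6191, 5685, 5985, 6130 and 5736 CPM with the standard diet and 5431, 5285, 5650, 5410 and 5631 CPM with the low-iron diet. The lowest standard-diet library was above the highest low-iron library, and standard-diet replicate 4 lay within its group.

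Every symbol made of Rpl, Rps or Rplp and a number, with at most 1 letter and 1 digit after it, was then taken. This set was chosen after the data were seen. Of 73 tested genes, 70 were below 0 with a median of -0.11. At an unadjusted p under 0.05, 31 (42.5%) were lower, and 8 were lower without overlap, where 3.75% and 0.600% of all accessions were. Over the 9 libraries these were 70, -0.12, 35 (47.9%) and 11, where 2.78% and 0.851% of all accessions were. The summed level of all 84 in the files was 9549 to 10206 CPM with low iron and 10363 to 11336 CPM with the standard diet, with standard-diet replicate 4 at 10922 CPM. Many ribosomal protein genes have processed pseudogenes, and reads shared with them may be missing from these counts. The count of 12 in the shorter list was 7 when standard-diet replicate 1 was left out, and 8 when low-iron replicate 1 or 2 was. It was 8 with all 20 libraries in 1 fit and 17 with DESeq2. Of all accessions, 486, 267, 279, 683 and 443 were lower at an unadjusted p under 0.05 in the same order, against 437 in the main fit. In each of the 18 alternatives run 29 to 31 members were below 0, the 31 being of 33 tested with no filter.

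Genes of oxidative phosphorylation, the respiratory chain and ATP synthase, were split at 25 above and 21 below 0 over 46 genes with a median of 0.01, and 0 had an unadjusted p under 0.05. Without standard-diet replicate 4 the split was 22 and 24 and the median -0.00. At that level 1 was lower, where 2.78% of all accessions were. Atp5me, an ATP synthase subunit gene, stood at -0.16 (SE 0.08) with all libraries and at -0.19 (SE 0.07) in the 9, where it was that 1, and Sdhd, a subunit gene of the iron-sulfur enzyme succinate dehydrogenase, at -0.08 (SE 0.05) and -0.06 (SE 0.05).

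Microglia genes were below 0 for 18 of 20, with a median of -0.10, and 4 (20.0%) were lower at an unadjusted p under 0.05, where 3.75% of all accessions were. Leaving out standard-diet replicate 4 gave 19, -0.12 and 3, where 2.78% of all accessions were. C1qb, a chain of the complement initiator C1q, stood at 56.4, 55.3, 52.4, 56.2 and 55.3 CPM with the standard diet and 43.9, 45.2, 52.9, 49.8 and 46.2 CPM with the low-iron diet. Only low-iron replicate 3 (52.9 CPM) reached the standard-diet range, at its lower end (52.4 CPM). Its log2 fold change was -0.21 (SE 0.06) with and without standard-diet replicate 4. Trem2, a lipid-sensing receptor gene of microglia, stood at 12.7 to 16.8 CPM with the standard diet (13.0 CPM in replicate 4) and at 10.3 to 12.3 CPM with low iron, apart by a small margin. Trem2 and Ly86 were the 2 members without overlap, where 0.600% of all accessions were. The summed level of the list overlapped widely, at 1040 to 1161 CPM with the standard diet and 940 to 1176 CPM with low iron. Perivascular macrophage genes had 0 of 4 at an unadjusted p under 0.05 with and without standard-diet replicate 4, and Cd163, their scavenger receptor gene, went from -0.73 (SE 0.36) to -0.29 (SE 0.24) without it.

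Astrocytes and oligodendrocytes had few genes with a low p. Astrocyte genes were below 0 for 12 of 14, with a median of -0.05 and 0 at an unadjusted p under 0.05. Over the 9 libraries 12 were again below 0 with a median of -0.07. At that level 1 (the glycolytic gene Aldoc, -0.10) was lower, where 2.78% of all accessions were. Acsbg1, a lipid metabolism gene of these cells, went from -0.13 to -0.11 without standard-diet replicate 4. Oligodendrocyte and myelin genes, which depend on iron-requiring enzymes during development, were below 0 for 16 of 18 with a median of -0.11, and 0 had an unadjusted p under 0.05. Without that library 15 were below 0 with a median of -0.07, again with 0. Cnp stood at -0.12 (SE 0.07; -0.08 in the 9 libraries) and Mbp, the myelin basic protein gene, at 0.15 (SE 0.09; 0.15), read from 1 of its 6 accessions. Of 5 precursor genes tested, 1 (Bcas1, -0.17 without standard-diet replicate 4) was lower at that level with all libraries, where 3.75% of all accessions were.

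Genes of iron uptake showed no common direction. Of 17 uptake and sensing genes, 7 were above and 10 below 0, with a median of -0.02, and 1 (5.88%) was lower at an unadjusted p under 0.05, where 3.75% of all accessions were. The 9 libraries gave 8 above and 9 below 0, with the same median and 1 lower, where 2.78% of all accessions were. Tfrc, the transferrin receptor gene, stood at 139, 152, 138, 166 and 164 CPM with the standard diet and 166, 136, 181, 182 and 158 CPM with the low-iron diet. The groups overlapped over most of their range, and the log2 fold change was 0.11 (SE 0.08), or 0.15 (SE 0.08) without standard-diet replicate 4. The 1 gene was Tfr2, the second transferrin receptor, at -0.57 (SE 0.20) and -0.41 (SE 0.18) on 12 to 47 reads.

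Of 5 storage and export genes, 4 were below 0 and 2 were lower at an unadjusted p under 0.05, where 3.75% of all accessions were. These were Slc40a1 and the ferritin light chain gene Ftl1. Ftl1 stood at 122, 111, 103, 133 and 105 CPM with the standard diet and 95.97, 94.98, 111, 102 and 95.9 CPM with the low-iron diet. Low-iron replicate 3 lay inside the standard-diet range, and the log2 fold change was -0.20 (SE 0.07), or -0.15 (SE 0.06) without standard-diet replicate 4. The ferritin heavy chain gene Fth1 stood at -0.03 (SE 0.06) and -0.05 (SE 0.05). The median of the 5 genes went from -0.20 to -0.05 without that library. Again 2 were lower at that level, where 2.78% of all accessions were.

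Among genes of iron use few had a low p. The 19 tested genes of heme synthesis and breakdown had a median of 0.00. At an unadjusted p under 0.05, 1 (Alas2) was lower, where 3.75% of all accessions were. Higher without overlap was 1, where 0.497% of all accessions were. That gene was Abcb6, a mitochondrial porphyrin transporter gene, at 0.08 (SE 0.04) and 0.09 (SE 0.04). The heme list had a median of -0.02 in the 9 libraries, with 1 lower at that level, where 2.78% of all accessions were. Of 19 iron-sulfur cluster genes, 11 were above and 8 below 0 with a median of 0.02, and 0 had an unadjusted p under 0.05, with Ciao2b at 0.12 and Hscb at -0.13. Over the 9 libraries 8 were above and 11 below 0, with a median of -0.01 and again 0. The 22 dioxygenase genes, among them histone demethylases and prolyl hydroxylases, had a median of -0.03 and likewise 0, and their values ran from -0.18 to 0.12. Without standard-diet replicate 4 they were split at 11 above and 11 below 0, with 0 at that level. The Tet genes of DNA demethylation were not analysed here. Of 13 hypoxia-inducible genes 0 had one, with a median of -0.03, and of 14 testable in the 9 libraries again 0.

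Dopamine and monoamine genes were few in the cortex. Of 9 tested, 1 (Th) was lower at an unadjusted p under 0.05, where 3.75% of all accessions were. In the 9 libraries 1 (Th) of 10 was, where 2.78% were. Th stood at 3.85, 4.16, 3.28, 19.0 and 4.01 CPM with the standard diet and 2.20, 3.05, 2.61, 2.74 and 3.30 CPM with the low-iron diet. The fourth standard-diet library was several times the rest, and low-iron replicate 5 lay just above standard-diet replicate 3. The log2 fold change was -1.27 (SE 0.52) with all libraries and -0.44 (SE 0.17) without that library, on 15 to 174 reads. Slc18a2, the vesicular monoamine transporter gene, stood at 0.16 (SE 0.10) and 0.18 (SE 0.11).

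Excitatory neuron genes were above 0 for 13 of 17 with a median of 0.15, which became 11 of 17 and 0.06 without standard-diet replicate 4, and 0 had an unadjusted p under 0.05 in either. Neurod1, a transcription factor gene of these cells, stood at 0.23 (SE 0.11) and 0.18 (SE 0.11). GABA receptor genes were above 0 for 12 of 14 with a median of 0.12, and 3 (21.4%) were higher at that level, where 2.25% of all accessions were. Without that library 12 were above 0 with a median of 0.10, and 3 were higher, where 2.04% of all accessions were, and 1 lower. Gabra4, an alpha subunit gene of GABA-A receptors, stood at 0.20 (SE 0.08) and 0.18 (SE 0.07). The summed level of the list was 2922 CPM in standard-diet replicate 4, 3611 to 3847 CPM in the other standard-diet libraries and 3755 to 4038 CPM with low iron, so the groups overlapped. With all 20 libraries in 1 fit, 1 of 14 GABA receptor genes was higher at that level. Over all accessions 451 were higher in that fit, against 262 in the main fit.

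Of 18 glutamate receptor genes, 14 were above 0 with a median of 0.08. At an unadjusted p under 0.05, 1 was higher, where 2.25% of all accessions were. It was Grik2, a kainate receptor subunit gene, at 0.18 (SE 0.07), and at 0.16 without standard-diet replicate 4. Over the 9 libraries 15 were above 0 with a median of 0.05. At that level 1 was higher and 1 lower, where 2.04% and 2.78% of all accessions were. Genes of cyclic AMP signalling were above 0 for 18 of 20 with a median of 0.11, and for 17 of 20 with a median of 0.06 without standard-diet replicate 4. At an unadjusted p under 0.05, 1 was higher and 1 lower with all libraries, where 2.25% and 3.75% of all accessions were. In the 9 libraries 3 were higher and 1 lower, where 2.04% and 2.78% were. Prkaca and Prkar1a, a catalytic and a regulatory subunit gene of protein kinase A, were higher without overlap, where 0.497% of all accessions were. The phosphodiesterase gene Pde1c went the other way, at -0.60 (SE 0.20) and -0.47 (SE 0.19) without that library. Insulin and PI3-kinase genes were split at 10 above and 11 below 0 over 21 genes, or 11 and 10 in the 9 libraries, with Pik3r3 going from -0.32 (SE 0.15) to -0.15 (SE 0.10). Of 16 ephrin and Eph receptor genes, 1 (Epha7) was higher at that level, where 2.25% of all accessions were. In the 9 libraries 1 was higher and 1 lower, where 2.04% and 2.78% were. Epha4 stood at 0.21 (SE 0.10) and 0.12 (SE 0.06).

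Interneuron markers turned on 1 library. Of 15 tested, 7 were above and 8 below 0 with all libraries, and 0 had an unadjusted p under 0.05. Of 16 tested without standard-diet replicate 4, 12 were above 0. In that fit 1 was higher at that level, where 2.04% of all accessions were. Gad1, which makes GABA, stood at 310, 306, 278, 912 and 319 CPM with the standard diet and 322, 351, 325, 341 and 314 CPM with the low-iron diet. Apart from standard-diet replicate 4 the low-iron values were mostly higher, with an overlap at 314 to 319 CPM. The log2 fold change was -0.36 (SE 0.34) with all libraries and 0.13 (SE 0.05) without that library, a change of sign. Of 8 striatal markers, 1 was higher at an unadjusted p under 0.05, where 2.25% of all accessions were. It was the opioid gene Pdyn, at 0.32 (SE 0.14), and at 0.20 without that library. The 6 tested olfactory bulb markers were all below 0 with a median of -1.03, which was -0.02 with 3 above and 3 below 0 in the 9 libraries.

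Reln, the gene of the secreted protein reelin that the series title names, showed no difference in the cortex beyond the spread of the libraries. It stood at 207, 234, 199, 352 and 225 CPM with the standard diet and 218, 252, 230, 236 and 204 CPM with the low-iron diet. Low-iron libraries lay within the standard-diet range, and above its remaining 4 libraries in 2 of 5 once standard-diet replicate 4 (352 CPM) was left out. The log2 fold change was -0.09 (SE 0.14, 95% interval -0.41 to 0.22), and 0.08 (SE 0.06) without standard-diet replicate 4. The receptor gene Vldlr stood at 0.08 (SE 0.06) and, in the 9 libraries, at 0.03 (SE 0.06). Dab1, the adaptor that reelin signals through, stood at 0.06 (SE 0.11) with all libraries and at -0.02 (SE 0.09) in the 9, a change of sign. Of 10 genes of the pathway, 9 were above 0 with a median of 0.06. At an unadjusted p under 0.05, 1 (the adaptor gene Crk, 0.13) was higher, where 2.25% of all accessions were. In the 9 libraries 9 were above 0 with a median of 0.05, and 0 had an unadjusted p under 0.05, with Crk at 0.12 (SE 0.06). Pafah1b1 stood at 0.12 (SE 0.06) and 0.08 (SE 0.04).

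Genes that follow the state of the animal had few low p. Of 21 immediate early genes, which mark recent neuronal activity, 11 were above and 10 below 0 with a median of 0.05, and 0 had an unadjusted p under 0.05, as in the 9 libraries with 14 above and 7 below 0. Their summed level ran from 2622 to 3971 CPM with the standard diet and from 2348 to 4209 CPM with low iron, a wide spread within each diet. Of 13 clock genes and 23 cholesterol synthesis genes 0 had an unadjusted p under 0.05, with medians of 0.04 and 0.03, and in the 9 libraries again 0, with medians of 0.03 and 0.01. Of 15 glucocorticoid response genes, 1 was higher at that level, Zbtb16 at 0.37 (SE 0.16), where 2.25% of all accessions were. Without standard-diet replicate 4 it stood at 0.29 (SE 0.16), and 0 genes were at that level.

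**Figure D5:**
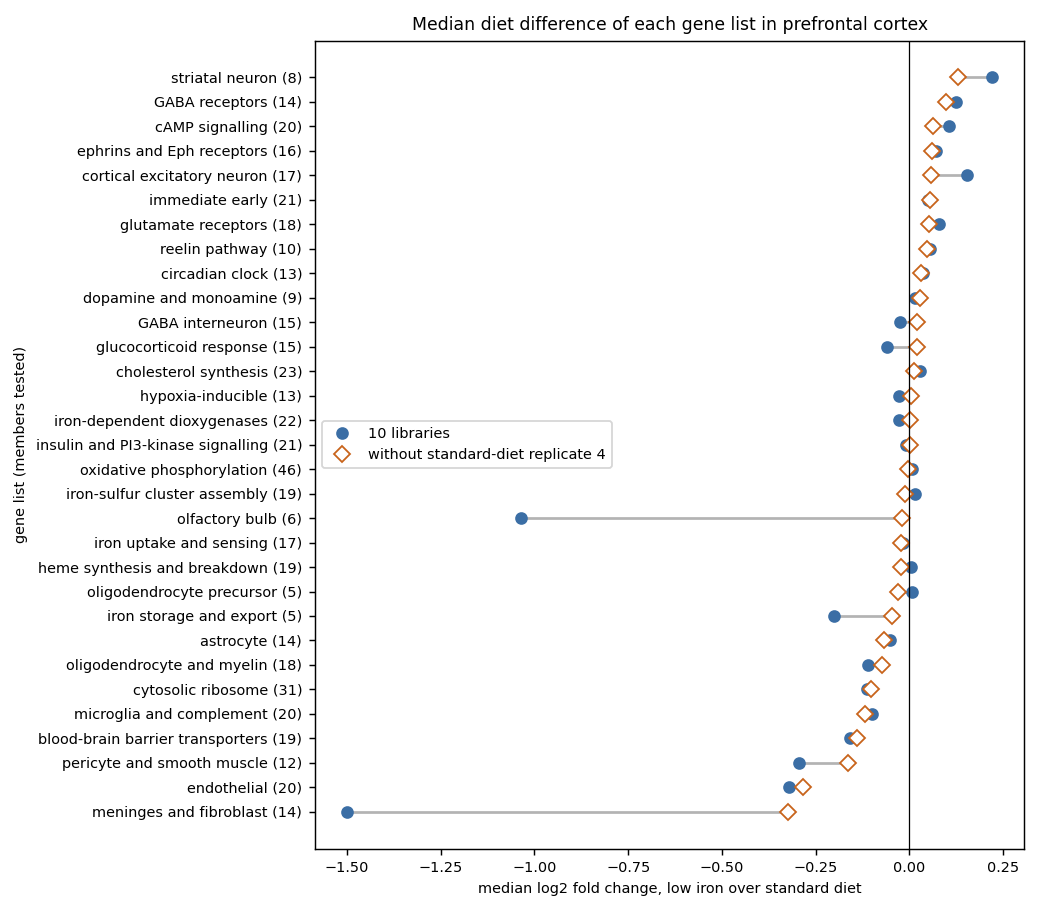
Median log2 fold change (horizontal axis, low iron over standard) of each gene list with at least 5 members tested (vertical axis, number tested in brackets), with all 10 libraries (filled circles) and without standard-diet replicate 4 (open diamonds). The medians of meninges (-1.50 to -0.32) and olfactory bulb (-1.03 to -0.02) move most, and those of endothelial, ribosome, microglia and blood-brain barrier genes stay below 0.

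The diet differences of the regions were set against each other with the interaction of diet and region over all 20 libraries. It is the log2 fold change in cortex minus that in the accumbens. With edgeR 0 of 11788 accessions passed (lowest adjusted p = 0.314), 632 (5.36%) had an unadjusted p under 0.05, and DESeq2 called 0, with 594 at an unadjusted p under 0.05. The interaction count was 414 without low-iron cortex replicate 2. In 19 libraries without standard-diet cortex replicate 4 it was 422 of 11774 (3.58%), with 0 passing (lowest adjusted p = 0.642). The diet log2 fold change differed between the regions by 0.83 (SE 0.25) for Reln and by 0.27 (SE 0.08) for Prkaca, neither passing. Without that library these were 0.98 (SE 0.20) and 0.23 (SE 0.07). For Reln the diet log2 fold change was -0.90 (SE 0.19) in the accumbens and -0.09 in the cortex, and for Prkaca -0.04 (SE 0.06) and 0.22. For Abcg2 the difference was -0.30 (SE 0.17), for Slco2b1 -0.19 (SE 0.10) and for Slc40a1 -0.52 (SE 0.25). Over the 19 libraries these were -0.28 (SE 0.18), -0.18 (SE 0.10) and -0.55 (SE 0.26). Stard5 (-1.39, SE 0.31), Dapp1 (-0.73, SE 0.21), Nipal2 (-0.45, SE 0.14), Pde1c (-0.81, SE 0.25) and Pltp (-0.26, SE 0.09) also had negative values, and none passed. Over the 19 libraries they stood, in the same order, at -1.27, -0.75, -0.38, -0.70 and -0.24. Apart from Reln, the genes given here have a low p in these same cortex libraries. That choice largely set the direction of their interaction values, which are no test of whether a difference belonged to the cortex.

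Set beside the cortex, the accumbens gave the following values for the same lists. Of its 11202 accessions tested, 4.05% had an unadjusted p under 0.05 in either direction. Endothelial genes were below 0 for 17 of 20 with a median of -0.06 and 0 at that level, and ribosomal protein genes for 26 of 31 with a median of -0.05 and 1 at that level. Oxidative phosphorylation genes were below 0 for 43 of 46 with a median of -0.07, and 5 were lower at that level. Blood-brain barrier genes had a median of 0.01. Microglia genes were above 0 for 15 of 20 with a median of 0.05. In the interaction, endothelial genes were below 0 for 19 of 20 (median -0.26), blood-brain barrier genes for 16 of 19 (-0.13), microglia genes for 20 of 20 (-0.13) and ribosomal protein genes for 26 of 31 (-0.04), while oxidative phosphorylation genes were above 0 for 44 of 46 (0.08). An unadjusted p under 0.05 with a lower value in cortex was found for 1, 1, 3 and 0 genes of the first 4 lists. Of all accessions 2.01% had one. Higher in cortex at that level were 2 of 46 oxidative phosphorylation genes (4.35%), where 5.36% of all accessions were at that level in either direction. Over the 19 libraries without standard-diet cortex replicate 4 the medians were -0.22, -0.11, -0.15, -0.04 and 0.06 in the same order. The first 4 lists then held 0, 1, 2 and 0 lower genes at that level, where 1.21% of all accessions were. Again 2 oxidative phosphorylation genes were higher, where 3.58% of all accessions were at that level in either direction. The first 4 lists stood lower in these same cortex libraries, whose values enter the interaction. That largely set the direction of their interaction values, so the counts are no test of whether a difference belonged to the cortex. Shares of all accessions below 0 in the accumbens and in the interaction were not counted. No list was tested as a whole.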

How the data were processed

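Prefrontal cortex RNA was analysed from deposited read counts, 1 file for each library. Per the submitters' processing notes, build rn6 and the tools STAR, HTSeq, DESeq, DESeq2 and Trimmomatic (0.36.3) were used, in unstated roles. The unstranded column was used, since 49.8 to 50.0% of reads lay on the first strand. Lines that name no gene (50.8 to 54.3% of reads) were left out. Of 18288 accessions, 17353 were named from a RefSeq table of assembly GRCr8, which also gave the promoters, 859 from the authors' deposited table and 76 stayed unnamed. The authors' deposited table holds mean normalised signal, log2 fold changes, a test score and p-values. Its counts equalled the libraries' for 17026 accessions, and 0 columns lacked a sample. Of 20 pairs of libraries within a diet, the lowest chi-square over degrees of freedom was 2.83, so none was counted as a copy.

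Counts were tested in R 4.3.3 with edgeR 4.0.16 (TMM, filterByExpr with minimum count 10, robust quasi-likelihood F test, two-sided). Unless a tool is named, p-values and adjusted p-values are edgeR's, with Benjamini-Hochberg adjustment over all accessions tested at a threshold of 0.05. The interaction used all 20 libraries. DESeq2 1.42.0, limma 3.58.1 (quality weights) and other filters, scalings and left-out libraries were alternatives. The scripts were tested on simulated counts. SE is the log2 fold change over the square root of F. CPM are counts scaled to the reads in the tested accessions times the TMM factor, from the main fit with all cortex libraries.

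The 34 gene lists, the members and the rule for named genes were chosen with earlier results of these data known. Named were the 12 genes with the lowest p in each direction, 6 more in each direction without standard-diet replicate 4, up to 2 members of each list by p, 8 genes furthest above in that library, and Reln, Vldlr, Dab1, Slc40a1, Tfrc, Fth1, Ftl1 and Th. Other members were named after their values were seen, where a count of 5 or fewer called for it. Not all genes of the rule are reported here.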

Additional observations from a re-analysis of the deposited data

Results flagged for a closer look

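In a group of 5 libraries, a value far from the other 4 relative to the range arises by chance in about 1 in 20 groups. Of 180 groups of cortex values examined, 35 values stood apart in this way, 25 of them from standard-diet replicate 4. The 8 genes named as furthest above in that library are among the 25 by their choice, and without them 26 values of 164 groups stood apart, 17 of them from it. In that library these were, in CPM and above the others, Reln 352, Th 19.0, Gad1 912, Kank3 58.1, Ctdsp1 87.1, Nipal2 15.5, Tent5c 5.12, Gk 22.3, Itga10 47.1, Ms4a15 19.1, Spp1 62.0, Cartpt 22.3, Cdhr1 442, Klhl14 27.1, Shisa8 106, Tbx21 10.5, Anpep 15.6, Pdgfrb 94.3, Slc47a1 14.8, Foxc1 68.2 and Cd163 9.70. Below the others it held Atp2a2 79.1, Rnf11 65.7 and Tspyl4 219 CPM, and its 50 most abundant accessions took 10.4% of reads. Gk, Rnf11, Tspyl4, Kank3 and Ctdsp1 were named for their low p in the fit without that library. The 17 is therefore also set in part by the choice of genes.

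The other 10 values came from 5 libraries. Low-iron replicate 4 was low for Atp2a2 (98.8 CPM) and Mmachc (13.3 CPM), and its Ms4a15 (0.0914 CPM) was a single read where the other low-iron libraries had 0. Low-iron replicate 3 was high for Pltp (159 CPM) and Acsbg1 (341 CPM), and low-iron replicate 1 for Tfr2 (3.16 CPM). Low-iron replicate 5 was high for Anpep (6.78 CPM), Pdgfrb (72.5 CPM) and Pde1c (3.22 CPM), the first 2 being pericyte genes, in the library with the highest meninges sum of its diet. Standard-diet replicate 3 was low for C1qb (52.4 CPM).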

How the results depend on the processing

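Across all alternatives run, 0 accessions passed an adjusted p of 0.05 with edgeR or DESeq2 in the cortex or the interaction, or with limma in the cortex. With all 20 libraries in 1 fit, 1134 accessions had an unadjusted p under 0.05, 451 higher and 683 lower. Leaving out 1 library at a time gave 437 to 1156 (170 to 491 higher, 267 to 665 lower), 177 to 376 without overlap, 414 to 862 in the interaction and 0 to 0 passing. The other filters and scalings gave 648 to 844.

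Signs turned for 5 genes, and the cause was not tested. With library quality weights Reln stood at 0.0345, Dab1 at -0.00447, Cdhr1 at 0.00479 and Gad1 at 0.0680. Leaving out 1 library at a time, values ran from -0.156 to 0.0766 for Reln, from -0.0178 to 0.141 for Dab1, from -2.44 to 0.144 for Cdhr1 and from -0.480 to 0.127 for Gad1, the turned ends being those without standard-diet replicate 4. Fth1 ran from -0.0468 to 0.00496, turned without standard-diet replicate 1. The other 1441 of 1450 values of 81 named genes kept their direction. Of 612 medians of the 34 lists, 15 moved by more than the spread between libraries, in the olfactory bulb, meninges, choroid plexus, hypoxia, heme and both iron lists.

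Labels do not tie replicate numbers together. With the replicate block 648 accessions had an unadjusted p under 0.05 and 0 passed (639 and 0 in the interaction), and same-numbered libraries of the 2 diets deviated with r from -0.343 to 0.176, best with its own number in 1 of 5 pairs. Between cortex and accumbens r ran from 0.0175 to 0.150 with low iron (best with its own number in 3 of 5) and from -0.0427 to 0.0786 with the standard diet (4 of 5). Depth limits Slc40a1, Stard5, Artn, Guca2a and Tent5c, read from under 50 reads a library.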
